A study of Homo sapiens with 6 samples.

Results

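Ribosome footprints on 10 myosin heavy chain genes, which encode the motor subunits of the actin-based motors, were followed in K562 cells. The genes were taken by symbol: MYO16, MYH9, MYH10, MYO1E, MYO5A, MYO6, MYO9A, MYO9B, MYO18A and MYO19, which are 10 of the 19330 genes listed in the count table. MYO16 was chosen from its large difference in the same contrast that is described here, and the other members with earlier results of these data known. Every value given for the 10 genes is therefore a description and carries no p-value. Of the other myosin heavy chain genes, 29 were listed in the same table and served for comparison.

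K562 is a human leukemia cell line with erythroid-like features. Its cells received the lentiviral vector pLentiCRISPRv2, which carries Cas9 and a guide RNA. The sgN6AMT1 group received guides to N6AMT1, and the sgCtrl group received guides to the olfactory receptor genes OR11A1 and OR2M49, as the labels spell it (OR2M4 in the methods of the study). Both groups were selected with puromycin for 48 h and analyzed 10 days after infection, with 3 libraries in each group. Which control guide went into which library is not given in the sources used here. No cloning step is described, so the libraries come from edited populations. The 6 Ribo-Seq libraries held 1821356 to 2969736 counted footprints. N6AMT1 itself had 12.6, 8.27 and 16.8 CPM in sgCtrl against 4.38, 3.89 and 4.34 CPM after depletion (log2 fold change -1.51, SE 0.31, adjusted p = 6.69e-05, edgeR quasi-likelihood test). CPM is the footprint count scaled to a common library size, here with TMM factors, and all fold changes are sgN6AMT1 over sgCtrl.

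A myosin heavy chain carries the motor domain, which binds actin and splits ATP, and a tail that decides what the motor holds. Class II chains such as MYH9 and MYH10 pair up into filaments that contract the cell cortex and the cleavage furrow, whereas the unconventional chains carry cargo, tether membranes or signal to small GTPases. Light chains and calmodulins sit on the neck of the heavy chain and set its stiffness and activity. N6AMT1, together with TRMT112, methylates eRF1, the factor that reads stop codons during translation termination.

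Because eRF1 acts at stop codons, the stop sites of the 3 genes that passed the threshold used below and of MYH9, the nearest relative of MYH10 among the 10, are shown from GRCh38. Each line gives 12 bases on each side of the stop codon, 5′ to 3′ on the coding strand, and capitals mark the stop codon.
MYO16: gacaccaccattTGAtgtggcctgaac
MYH10: ccccagtcagagTAAagttgcaggaag
MYO19: actgggctggggTGAtccttggtgcct
MYH9: aaacctgccgaaTAAgcctcttctcct
The MYO16 site lies at chr13:109206822-109206848 on the plus strand. The other sites lie on the minus strand, at chr17:8475792-8475818 for MYH10, chr17:36496239-36496265 for MYO19 and chr22:36282656-36282682 for MYH9. All 4 windows lie within 1 exon and run from the end of the coding sequence into the 3′ UTR. For MYO16 and MYO19, as for MYO5A, MYO6 and MYO9A, the transcript listed in the count table was not found in the annotation, and the canonical transcript of the same symbol was read in its place.

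The 10 genes used all 3 stop codons, with TGA in 6 of them, TAA in MYH9 and MYH10, and TAG in MYO6 and MYO18A. Across all tested genes with an annotated stop, TGA made up 49.2%, TAA 29.7% and TAG 21.1%. The median log2 fold change of those genes was 0.01 for TGA, -0.01 for TAA and 0.03 for TAG. The share of genes past the threshold described below was 25.1% for TGA, 29.4% for TAA and 27.5% for TAG.

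Footprints on 3 of the 10 genes, MYO16, MYH10 and MYO19, were lower in sgN6AMT1 beyond the threshold of an adjusted p of 0.05 in the edgeR fit over all genes, and none was higher. Of the 10, 8 had enough counts to be tested, and 5 of these did not pass. Over all genes, 26.9% of the 9202 tested genes passed, 13.9% with lower and 12.9% with higher footprints. The groups did not overlap for 6 of the 8 tested members, 4 lower and 2 higher, where 37.5% of all tested genes had groups that did not overlap. MYO16 was chosen on this contrast, and the other members with earlier results of these data known, so nothing is read from these counts. Without MYO16, 2 of the other 7 tested members passed, and 5 of the 7 had no overlap, with the same limit. The median log2 fold change was -0.22 over the 8 members and 0.10 over the 7 others, beside 0.01 over all tested genes.

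**Figure D1:**
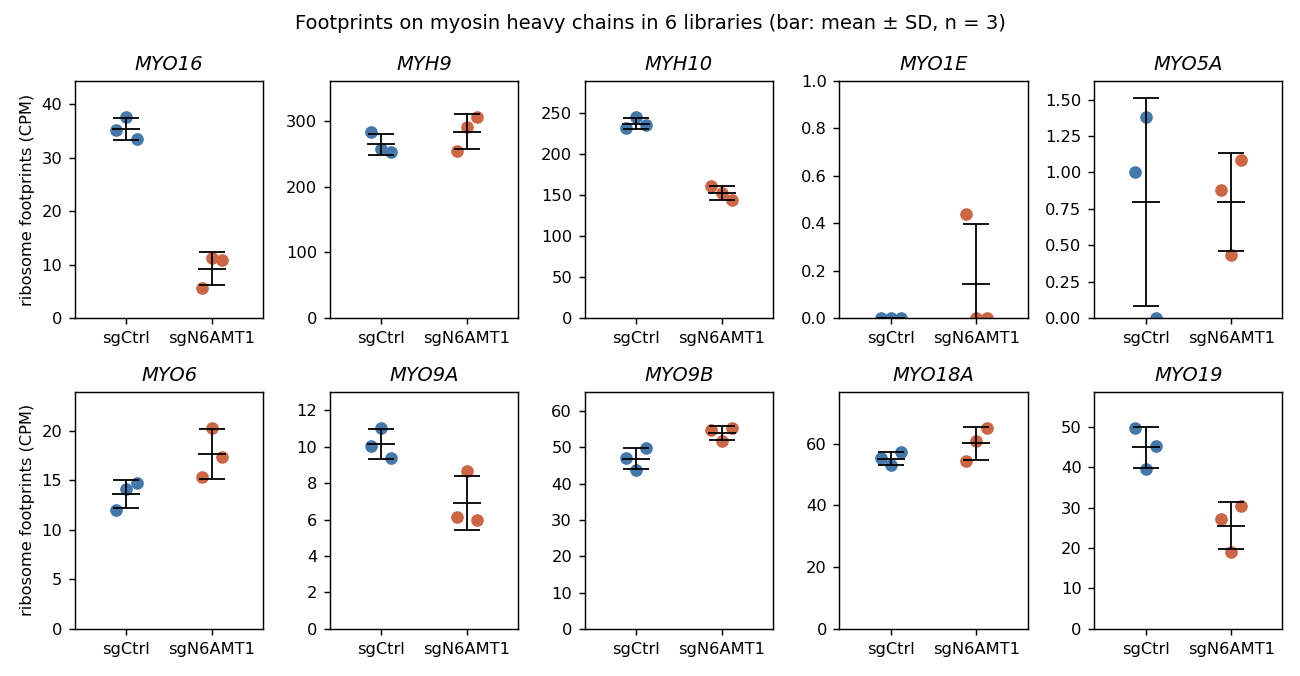
Footprint levels (CPM, each axis from 0) of the 10 myosin heavy chains in 3 sgCtrl and 3 sgN6AMT1 libraries, 1 point per library, with the mean and SD as bars. MYO16, MYH10, MYO19 and MYO9A lie lower in all sgN6AMT1 libraries, MYO6 and MYO9B lie higher, MYH9 and MYO18A overlap, and MYO1E and MYO5A are near 0.

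MYO16 is an unconventional myosin with an ankyrin repeat region ahead of its motor domain, best known from the nervous system. The gene spans chr13:108629611-109208005 on the plus strand, with 35 exons in the transcript used. Its footprints numbered 70, 109 and 68 in sgCtrl, compared with 13, 26 and 20 in sgN6AMT1. These counts correspond to 35.2, 37.6 and 33.5 CPM in sgCtrl and to 5.70, 11.2 and 10.9 CPM in sgN6AMT1. Every sgN6AMT1 library lay under every sgCtrl library, and sgN6AMT1 replicate 1 was the lowest of all. The mean was 35.4 ± 2.04 CPM in sgCtrl and 9.26 ± 3.09 CPM in sgN6AMT1 (SD, n = 3), a 3.82-fold lower level. The exact Poisson 95% intervals of the summed counts ran from 31.4 to 40.4 CPM and from 6.98 to 11.8 CPM, and they cover counting error only. The log2 fold change was -1.95 (SE 0.20), which placed it 6 from the lowest of the 9202 tested genes.

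No tested neighbor of MYO16 on chromosome 13 was lower past the threshold. Of the 3 tested genes nearest on each side (ARGLU1, LIG4 and ABHD13 before it, and IRS2, CARKD and CARS2 after it), 1 passed the threshold, and in the other direction. That gene was IRS2, an adaptor of the insulin receptor, with a log2 fold change of 1.01 (SE 0.35, adjusted p = 0.0233, edgeR) on only 27 footprints in sgCtrl and 51 in sgN6AMT1. This call was lost with DESeq2 and without sgCtrl replicate 2 or 3 or sgN6AMT1 replicate 2 or 3 (adjusted p up to 0.215). The other 5 lay between -0.25 and 0.19 on the log2 scale. Over the 149 tested genes of chromosome 13, 18 fell and 15 rose, and the median log2 fold change was -0.05.

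The genes with the pattern most like MYO16 over the 6 libraries were LMO2, GP6 and MCAM, among 7803 genes compared. Likeness was the distance between log2(CPM + 1) values centered on the mean of each gene, and it came to 0.62, 0.77 and 0.87. LMO2, a bridging factor in blood transcription complexes, had 39.7, 43.1 and 40.4 CPM in sgCtrl and 11.0, 18.6 and 16.3 CPM in sgN6AMT1. GP6, the collagen receptor of platelets, had 19.1, 19.3 and 17.7 CPM in sgCtrl and 5.70, 6.48 and 5.97 CPM in sgN6AMT1. MCAM, a surface adhesion molecule, had 45.2, 47.6 and 46.3 CPM in sgCtrl and 14.9, 18.6 and 23.9 CPM in sgN6AMT1. As with MYO16, the groups of each of these genes did not overlap, which the way they were chosen fixes.

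Markers of cell types were set beside these values. The marker lists were written with earlier results of these data known, so their counts are a description. All 12 erythroid markers were tested, and 5 fell (GATA1, KLF1, LMO2, TFRC and HBZ) and 3 rose (TAL1, GYPC and HBE1). Their summed level ran from 27556 to 29061 CPM in sgCtrl and from 27938 to 28866 CPM in sgN6AMT1. Most of this sum was HBG1, with means of 9553 and 9482.5 CPM, and HBG2, with means of 9920 and 9851 CPM. Neither HBG1 nor HBG2 passed, so the sum says little of the other erythroid markers. Of 15 megakaryocyte and platelet markers, 7 were tested, 5 fell and none rose. Their summed level was 221 to 239 CPM in sgCtrl and 104 to 131 CPM in sgN6AMT1, while GP1BA, PF4, VWF and SELP were at 0 in every library. Of the 7 neuronal markers 1 was tested and did not pass, and RBFOX3, SNAP25, MAP2, DCX and NEFL were at 0. The single tested marker of lymphocytes did not pass, and of 5 tested markers of epithelium and fibroblasts 2 rose. Beside these counts, 26.9% of all tested genes passed, 13.9% lower and 12.9% higher. LMO2 is 1 of the erythroid markers and GP6 1 of the megakaryocyte and platelet markers. The part of any of these in the MYO16 difference was not tested. In bulk footprints alone, fewer cells that express a gene, less of its mRNA and fewer ribosomes per mRNA cannot be told apart. The study also sequenced total RNA and computed translation efficiency, which were not used here.

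MYH9 and MYH10 encode the heavy chains of nonmuscle myosin IIA and IIB. They took up most of the footprints on the 10 genes, 70.8% ± 0.78 in sgCtrl and 71.5% ± 0.66 in sgN6AMT1 (SD, n = 3). MYH10 had 232, 245 and 235 CPM in sgCtrl and 161, 153 and 144 CPM in sgN6AMT1, with no overlap. Its mean was 237 ± 6.82 CPM in sgCtrl and 153 ± 8.23 CPM in sgN6AMT1, and its log2 fold change was -0.64 (SE 0.07). MYH9 had 283, 257 and 253 CPM in sgCtrl and 255, 291 and 306 CPM in sgN6AMT1. These values overlapped, and the log2 fold change was 0.10 (SE 0.06). MYH9 did not pass the threshold with all libraries, but it passed, in the higher direction, when sgN6AMT1 replicate 1 was left out (4 members past the threshold instead of 3).

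The ratio of MYH10 to MYH9 footprints within a library needs no scaling between libraries. It was 0.821, 0.953 and 0.928 in sgCtrl and 0.632, 0.525 and 0.472 in sgN6AMT1. The 2 groups of ratios did not overlap, with means of 0.901 ± 0.070 and 0.543 ± 0.081 (SD, n = 3). Of the 28-base words in the MYH9 coding sequence, 2.37% also occur in another gene, mostly in MYH11, and for MYH10 this share was 0.167%. MYH11, the smooth muscle heavy chain, had 36 footprints over all 6 libraries.

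**Figure D2:**
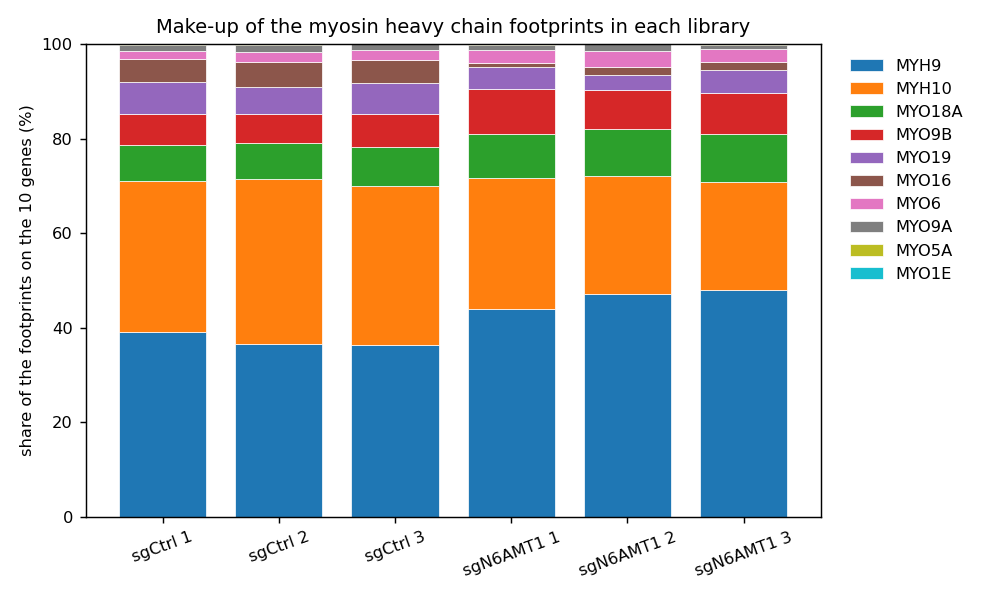
Share of each myosin heavy chain (%) in the summed footprints on the 10 genes, 1 stacked bar per library. MYH9 and MYH10 together hold 70.8% and 71.5% on average while the MYH10 part is smaller, and MYH9 larger, in the 3 sgN6AMT1 bars. Shares depend on the sum of the 10 genes, and the level of MYH9 in CPM overlapped between the groups.

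As a share of the footprints on the 10 genes, MYH9 made up 37.3% ± 1.49 in sgCtrl and 46.4% ± 2.20 in sgN6AMT1 (SD, n = 3). The share of MYH10 was 33.5% ± 1.44 and 25.1% ± 2.52. MYO16 made up 5.00% ± 0.30 in sgCtrl and 1.50% ± 0.46 in sgN6AMT1. The 10 genes together had 709 ± 14.4 CPM in sgCtrl and 611 ± 28.4 CPM in sgN6AMT1.

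MYO19 is the myosin of the mitochondrial outer membrane, where it links mitochondria to actin. It had 99, 115 and 92 footprints in sgCtrl and 62, 44 and 56 in sgN6AMT1, or 49.7, 39.6 and 45.4 CPM against 27.2, 19.0 and 30.4 CPM. The lowest sgCtrl library lay above the highest sgN6AMT1 library. The mean level was 44.9 ± 5.06 CPM in sgCtrl and 25.5 ± 5.87 CPM in sgN6AMT1 (SD, n = 3), and the log2 fold change was -0.81 (SE 0.15).

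MYO9A and MYO9B are single-headed myosins with a GTPase-activating domain in the tail, which switches off small GTPases such as RHOA. MYO9A had 10.0, 11.0 and 9.37 CPM in sgCtrl and 6.14, 8.64 and 5.97 CPM in sgN6AMT1. The groups did not overlap, on 11 to 32 footprints per library, with a log2 fold change of -0.55 (SE 0.28), which missed the threshold. MYO9B had 47.2, 43.8 and 49.8 CPM in sgCtrl and 54.8, 51.8 and 55.4 CPM in sgN6AMT1. Here the sgN6AMT1 libraries were the higher ones, by 0.21 on the log2 scale (SE 0.12), which missed it too.

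MYO6, the motor that walks toward the pointed end of actin and serves endocytosis and autophagy, had 12.1, 14.1 and 14.8 CPM in sgCtrl and 15.3, 20.3 and 17.4 CPM in sgN6AMT1. All sgN6AMT1 libraries were above all sgCtrl libraries. The log2 fold change of MYO6 was 0.37 (SE 0.21) and missed the threshold. MYO18A, a chain with little motor activity that binds GOLPH3 at the Golgi, had 55.3, 53.1 and 57.2 CPM in sgCtrl and 54.4, 60.9 and 65.1 CPM in sgN6AMT1. These values overlapped, and the log2 fold change was 0.12 (SE 0.12).

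MYO5A, a vesicle motor known from melanosome transport, and MYO1E, a membrane-bound class I myosin, were hardly translated and were not tested. MYO5A had 2, 4 and 0 footprints in sgCtrl and 2, 1 and 2 in sgN6AMT1. MYO1E had no footprint in any sgCtrl library and a single one in sgN6AMT1, in replicate 1. A count of 0 over the sgCtrl group allows a level of up to 0.434 CPM, which is 3 counts over that group.

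**Figure D3:**
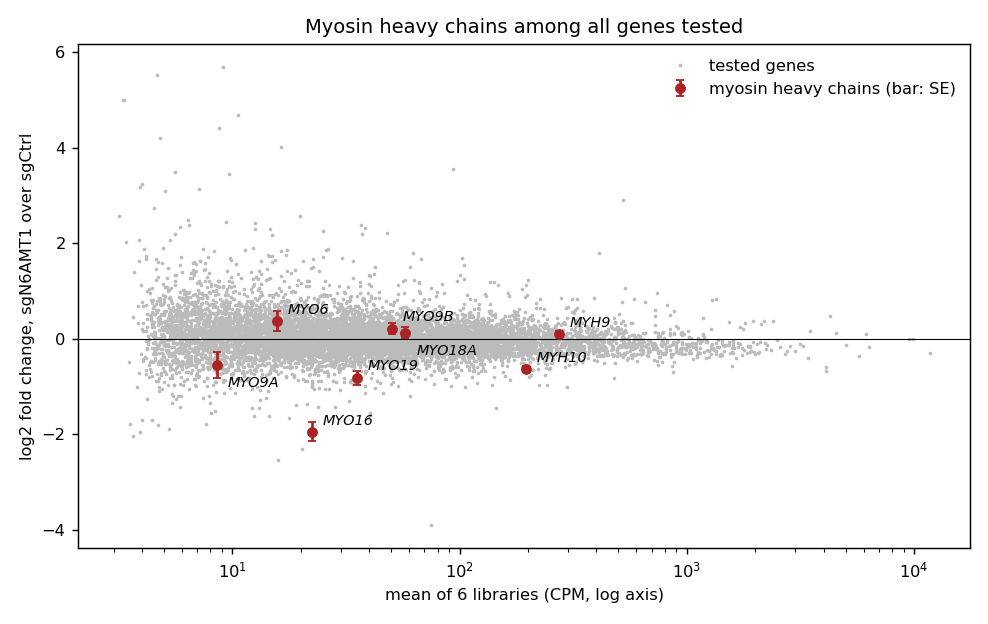
Log2 fold change (sgN6AMT1 over sgCtrl) against the mean level of 6 libraries (CPM, log axis) for the 9202 tested genes, with the 8 tested myosin heavy chains in red and their SE as bars. MYO16 at -1.95 lies near the lower edge of the cloud, and MYO19 at -0.81, MYH10 at -0.64 and MYO9A at -0.55 lie under its middle. MYH9, MYO6, MYO9B and MYO18A lie within it.

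Levels were compared between the genes per kilobase of coding sequence. In sgCtrl the order was MYH9 at 45.0 CPM per kilobase, MYH10 at 39.4, MYO19 at 15.4, MYO18A at 8.95, MYO9B at 7.25, MYO16 at 6.28, MYO6 at 3.54 and MYO9A at 1.33. Each neighbor in this order was apart from the next in all 3 sgCtrl libraries, whereas MYO5A, at 0.14 CPM per kilobase, overlapped with MYO1E, at 0. In sgN6AMT1, MYO16 stood at 1.64 CPM per kilobase, under MYO6 at 4.58. MYO19 at 8.77 CPM per kilobase stood under MYO18A at 9.76, with libraries that overlapped between these 2 genes. The lengths of MYO16, MYO19, MYO6, MYO9A and MYO5A are those of the canonical transcripts named above.

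Of the 29 other myosin heavy chains listed, 4 were tested, and 25 were under the filter on low counts, 10 of them at 0 in every library. The most abundant was MYO1D, a class I myosin, with 134 ± 7.76 CPM in sgCtrl and 125 ± 8.02 CPM in sgN6AMT1 (SD, n = 3), and it did not pass (log2 fold change -0.10, SE 0.08, adjusted p = 0.384, edgeR). Its level of 44.5 CPM per kilobase in sgCtrl was about that of MYH9. MYO1C and MYO18B did not pass either. MYO3B, a class III myosin with a kinase domain, fell, with a log2 fold change of -1.27 (SE 0.41, adjusted p = 0.0136, edgeR). Its level was low, at 5.53, 6.21 and 6.41 CPM in sgCtrl and 3.94, 2.16 and 1.09 CPM in sgN6AMT1, and it is named after its values were seen. It did not pass with DESeq2 or without sgCtrl replicate 2 or sgN6AMT1 replicate 2 or 3 (adjusted p up to 0.161).

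Genes that work with the heavy chains were taken from 4 further lists by function, and with the other heavy chains 74 genes were tested, of which 15 rose and 8 fell. These 23 genes are 31.1% of the 74, against 26.9% of all tested genes. The count rested in part on single libraries, since 14 of the 74 passed without sgN6AMT1 replicate 2. With DESeq2 7 genes passed, 4 higher and 3 lower.

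Of the 8 tested light chains and calmodulins, 5 rose and 2 fell. MYL4, the light chain of atrial and embryonic muscle, had 207, 212 and 228 CPM in sgCtrl and 122, 115 and 118 CPM in sgN6AMT1 (log2 fold change -0.86, SE 0.08, adjusted p = 4.47e-17, edgeR). MYL6, the essential light chain of nonmuscle myosin II, rose from 424 ± 8.45 to 541 ± 1.64 CPM (log2 fold change 0.35, SE 0.05, adjusted p = 1.13e-07, edgeR). For these 2 genes the libraries of both groups did not overlap, in opposite directions.

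The related MYL6B rose less firmly, from 31.5 ± 3.08 to 40.1 ± 4.13 CPM (adjusted p = 0.0482, edgeR), and it did not pass in 9 of 15 alternative settings (adjusted p up to 0.325), among them those without sgCtrl replicate 1 or 2 or sgN6AMT1 replicate 2 or 3. Calmodulin, the calcium sensor that also serves unconventional myosins as a light chain, is encoded by several genes. CALM2, the most abundant gene of this list, rose with a log2 fold change of 0.18 (adjusted p = 0.00772, edgeR), but it did not pass with DESeq2 or without sgCtrl replicate 2 or sgN6AMT1 replicate 1 (adjusted p up to 0.0798). CALM3 fell, with a log2 fold change of -0.25 (adjusted p = 0.0316, edgeR), and it did not pass in 6 of the 15 settings (adjusted p up to 0.160), among them those without sgCtrl replicate 1 or 2 or sgN6AMT1 replicate 3. The regulatory light chain MYL12B rose by 0.15 on the log2 scale (adjusted p = 0.0301, edgeR), and did not pass in 7 of 15 settings (adjusted p up to 0.249), among them those without sgCtrl replicate 2 or 3 or sgN6AMT1 replicate 1 or 2. The related MYL12A, at 427 ± 26.0 and 441 ± 27.7 CPM, did not pass.

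Among 21 tested kinases, phosphatase subunits and regulators of myosin, 2 rose, 1 fell and 18 did not pass. DAPK1, a calmodulin-dependent death kinase that phosphorylates the regulatory light chain, had 19.1, 17.9 and 19.7 CPM in sgCtrl and 39.0, 40.2 and 26.1 CPM in sgN6AMT1 (log2 fold change 0.92, SE 0.17, adjusted p = 5.15e-06, edgeR). PPP1CB, the catalytic subunit of myosin phosphatase, rose from 163 ± 5.37 to 206 ± 16.1 CPM (log2 fold change 0.34, adjusted p = 0.000128, edgeR). MYLK3, the light chain kinase of cardiac muscle, fell from 19.1 ± 3.12 to 11.9 ± 3.28 CPM (log2 fold change -0.68, adjusted p = 0.0138, edgeR). The MYLK3 call was lost with DESeq2 and without sgCtrl replicate 3 or sgN6AMT1 replicate 2 (adjusted p up to 0.159). RHOA, the most abundant gene of this list and the GTPase upstream of the kinases ROCK1 and ROCK2, did not pass, at 312 ± 19.9 and 331 ± 23.1 CPM.

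Cargo adaptors and partners are the genes through which the tails of the unconventional chains act. Of 32 tested, 6 rose and 4 fell. For MYO19, whose receptors on mitochondria are the Miro GTPases, RHOT2 had 98.5, 93.1 and 78.4 CPM in sgCtrl and 44.7, 49.3 and 58.6 CPM in sgN6AMT1 (log2 fold change -0.84, SE 0.11, adjusted p = 2.99e-09, edgeR). The other Miro gene, RHOT1, had a log2 fold change of 0.25 (SE 0.17, adjusted p = 0.298, edgeR) and did not pass.

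For MYO6, the adaptor GIPC1 rose from 25.8 ± 3.33 to 38.4 ± 2.96 CPM (log2 fold change 0.55, adjusted p = 0.0024, edgeR), and the endosomal adaptor TOM1 rose from 14.2 ± 3.21 to 23.3 ± 4.24 CPM (log2 fold change 0.66, adjusted p = 0.00698, edgeR). Neither passed with DESeq2 (adjusted p = 0.068 and 0.105), and TOM1 also did not pass without sgCtrl replicate 3 or sgN6AMT1 replicate 3. From the same list, DAB2, TOM1L2, CALCOCO2 and LMTK2 did not pass, while OPTN and TAX1BP1 rose past the threshold with all libraries. For MYO16, a relative of the NYAP proteins that bind the WAVE complex of actin nucleation, NYAP1 and NYAP2 were at 0 in every library. Of the WAVE complex, the blood cell subunit NCKAP1L had 20.1, 20.0 and 18.7 CPM in sgCtrl and 44.3, 33.7 and 36.9 CPM in sgN6AMT1 (log2 fold change 0.96, SE 0.16, adjusted p = 5.92e-07, edgeR). BRK1, its smallest subunit, rose from 103 ± 12.8 to 128 ± 6.75 CPM (log2 fold change 0.31, adjusted p = 0.00526, edgeR), but not with DESeq2 or without sgCtrl replicate 1 (adjusted p up to 0.0952). The other subunits tested, WASF1, WASF2, CYFIP1, NCKAP1, ABI1 and ABI2, did not pass. PIK3R1, a regulatory subunit of phosphoinositide kinase, which NYAP proteins also bind, fell (log2 fold change -1.69, SE 0.43, adjusted p = 0.0013, edgeR) on 46 footprints in sgCtrl and 13 in sgN6AMT1. It did not pass without sgN6AMT1 replicate 2 (adjusted p = 0.0566). SYNJ1, the phosphoinositide phosphatase that binds MYO1E, fell from 27.8 ± 4.25 to 18.2 ± 5.22 CPM (log2 fold change -0.63, adjusted p = 0.0052, edgeR). SYNJ1 did not pass with DESeq2 (adjusted p = 0.104) or without sgN6AMT1 replicate 2, where its log2 fold change was -0.41 (adjusted p = 0.142, edgeR). DYNLL1, a light chain shared by dynein and MYO5A, was the most abundant gene of the list and did not pass, at 238 ± 9.55 and 240.3 ± 1.84 CPM. MLPH, the adaptor of MYO5A on melanosomes, was at 0.

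Of 9 tested actins and tropomyosins, 2 rose and none fell. ACTB, the main actin of these cells, had 4358 ± 150.3 CPM in sgCtrl and 4730 ± 252 CPM in sgN6AMT1 (log2 fold change 0.12, adjusted p = 0.0224, edgeR), and it did not pass in 6 of 15 settings (adjusted p up to 0.203), among them those without sgCtrl replicate 2 or 3 or sgN6AMT1 replicate 2 or 3. TPM4, a tropomyosin of nonmuscle stress fibers, rose from 36.7 ± 3.28 to 50.4 ± 7.26 CPM (log2 fold change 0.44, adjusted p = 0.00526, edgeR), but not with DESeq2 or without sgN6AMT1 replicate 2 (adjusted p up to 0.115).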

How the data were processed

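Ribosome footprints were sequenced from 3 sgCtrl and 3 sgN6AMT1 K562 libraries. The deposited table holds footprint counts per canonical transcript. Before deposit the authors trimmed adapters with cutadapt, selected footprints by length, removed rRNA and tRNA reads and mapped to GRCh38 with HISAT2 and to its canonical transcripts with Bowtie2. Whether P-sites within coding sequences or all overlapping reads were counted is not given in the sources used here. Longer or shorter coding sequence changes counts, so levels between genes are given per kilobase.

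Genes were filtered with filterByExpr, which left 9202 and removed 10128 with 0.465% of the counts. Groups were compared with edgeR 4.0.16 in R 4.3.3 (TMM factors, robust quasi-likelihood F test, 2-sided, Benjamini-Hochberg over all tested genes, threshold 0.05). DESeq2 1.42.0 and voom in limma 3.58.1, other scalings and filters, removal of coding length and GC trends, a replicate block and leaving out each library were alternatives. Libraries of 1 group differed by more than counting noise (chi-square per degree of freedom 1.25 to 1.68), and by 4.89 to 7.04 across groups. That the libraries of a group are separate infections is taken from the study's description of its replicates. Annotation came from GENCODE on GRCh38.

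The members, the gene lists and the marker lists were chosen with earlier results of these data known. All 10 members are named. From each partner list the text names the most abundant tested gene and up to 6 genes that passed, those with the largest changes among genes averaging 10 CPM or more. It also names the 3 genes most like MYO16 and its nearest tested neighbors. MYO3B, MYL12A, MYL12B, RHOT1, PIK3R1, the WAVE subunits that did not pass, NYAP1, NYAP2, MLPH and the single cell type markers were named after their values were seen. Some genes of the lists are counted but not reported here by name.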

Additional observations from a re-analysis of the deposited data

How the results depend on the processing

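MYO16, MYH10 and MYO19 kept their direction and passed in each of the 15 alternatives. Their log2 fold changes were -2.14 to -1.68, -0.68 to -0.53 and -0.94 to -0.63. MYO16 was chosen on this contrast, the other members were chosen with earlier results of these data known, and the same libraries were refit. Passing in the alternatives is therefore no separate evidence for any of these genes. MYH9 passed as well in 2 of the alternatives, with coding length and GC trends removed and without sgN6AMT1 replicate 1, so that 3 to 4 members passed. Over all genes, 2473 passed with all libraries, 1859 to 2322 when 1 library was left out, and 1324 with DESeq2 (585 higher, 739 lower). Of the partner genes 23 passed, 14 to 23 when 1 library was left out, with the 14 for sgN6AMT1 replicate 2, and 7 with DESeq2. Scaling by total counts moved the median of all genes by 0.05 on the log2 scale and the calls to 1560 higher and 976 lower, from 1191 and 1282, and those of the partner genes to 23 higher and 6 lower. The MYO16 share of the member footprints differed by -3.49 points, by -3.65 to -3.23 without 1 library, and by -5.14 with MYH9 out of the sum. The MYH10 share differed by -8.43 points, by -9.76 to -7.25 without 1 library, and by -6.72 with MYH9 out of the sum. No call changed direction, while DYNLL1, which did not pass in any setting, ran from -0.05 to 0.07 on the log2 scale. No pairing of the libraries by replicate number was seen (correlations of same-numbered deviations -0.14, 0.04 and 0.00, and libraries did not all correlate best with their own number). With 3 libraries in each group, this cannot exclude a pairing. With a replicate block, 2390 genes, 3 members and 21 partner genes passed. The few footprints on MYO5A, MYO1E and 25 other heavy chains limit what can be said of them, and MYO9A and MYO6 rest on 11 to 47 footprints per library. The causes of these differences between settings were not tested.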
